A study of Mus musculus with 4 samples.

Results

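The genes described here make serine and glycine or carry amino acids into the cell: the enzymes Phgdh, Psat1, Psph and Shmt2, and the transporter genes Slc38a2, Slc1a4, Slc1a5, Slc7a5, Slc7a11 and Slc3a2. They were chosen by pathway from the 17305 genes that the arrays name, with earlier results of these data known. Every probe whose RefSeq transcript belongs to 1 of the 10 genes was taken, which gave 18 of 25097 named probes. Of these, 17 passed a filter on dim probes, at least 1 for each of the 10 genes. The study compared pancreas of C57BL/6JNarl mouse embryos at E18.5 between Cyp11a1 knockout and wild type, with RNA measured on 4 two-colour Agilent arrays. Each array held 1 knockout extract in the red dye and 1 wild-type extract in the green dye, so a gene-specific effect of the dyes cannot be told apart from genotype. The making of the allele, the embryos' sex and the number of embryos pooled per extract are not given in the sources used here. The labels call the arrays biological replicates without saying that the embryos came from separate litters, so p-values measure the spread between these 4 arrays.

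Serine is made from an intermediate of glycolysis in 3 steps, catalysed in turn by Phgdh, Psat1 and Psph, and Shmt2 then turns serine into glycine in mitochondria and hands a carbon unit to folate. Slc38a2 and Slc1a4 carry small neutral amino acids, Slc1a5 exchanges glutamine, Slc7a5 brings in large neutral amino acids, and Slc7a11 exchanges cystine for glutamate. The last pair work only as dimers with the heavy chain Slc3a2. Most of these genes are known targets of Atf4, the transcription factor that cells raise when amino acids run short or unfolded proteins build up, and acinar cells of the pancreas make secreted protein at a high rate.

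Median signals ran from 304 to 467 in red and from 163 to 224 in green over the arrays, with 78.2% to 85.1% of spots well above background. For the spike-in controls, observed log ratios rose with a slope of 0.672 to 0.725 on the expected ones, below the slope of 1 that full recovery would give. The targeted gene, Cyp11a1, was at -0.16 ± 0.070 in log2 terms on its brighter probe (SE, n = 4, adjusted p = 0.164 by limma) and did not pass the test. Since the sources used here do not place its probes relative to the deleted part, this does not check the labels. The 12 acinar and 11 tested islet markers exceeded background in either channel of every array, so the defining transcripts of pancreas were present.

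Most of these genes were lower in knockout pancreas. Of the 10, 7 fell (Psat1, Psph, Slc38a2, Slc7a5, Slc1a4, Slc1a5 and Slc7a11), 0 rose and 3 did not pass (Phgdh, Shmt2 and Slc3a2), by limma with Benjamini-Hochberg adjustment over 15524 genes and a threshold of 0.05. Over all genes tested, 5.11% fell and 9.45% rose by the same rule, or 14.6% in either direction. These shares, like those given below, are a background and no test, since the members were chosen with earlier results known. For the 10 genes the median of the log2 ratios (knockout over wild type) was -0.43, and for all genes 0.013. Among the 4 enzymes 2 fell, and among the 6 transporter genes 5 fell. The members that fell lay between -0.29 (Slc1a5) and -0.53 (Psat1), or 81.9% and 69.0% of the wild-type signal. Given the spike-in slopes above, array ratios can understate differences in RNA. In bulk tissue, fewer cells of a type and less RNA per cell cannot be told apart.

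Part of these directions depends on loess, which sets the typical ratio of genes of like brightness to 0 on each array. When arrays were only centred on their median, 3 of the 10 passed as lower (Psat1, Slc1a4 and Slc7a11) and 3 as higher (Phgdh, Shmt2 and Slc3a2), and the median of the 10 was -0.045 while that of all genes was 0.26. With each array then centred on the median of the genes tested, 6 passed as lower and 1, Phgdh, as higher. Over all genes the calls were 1467 higher and 793 lower with loess, 9471 and 2451 with median centring, and 4254 and 4811 with the second centring. With median centring, then, 61.0% of all genes passed as higher and 15.8% as lower, and with the second centring 27.4% and 31.0%.

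**Figure D1:**
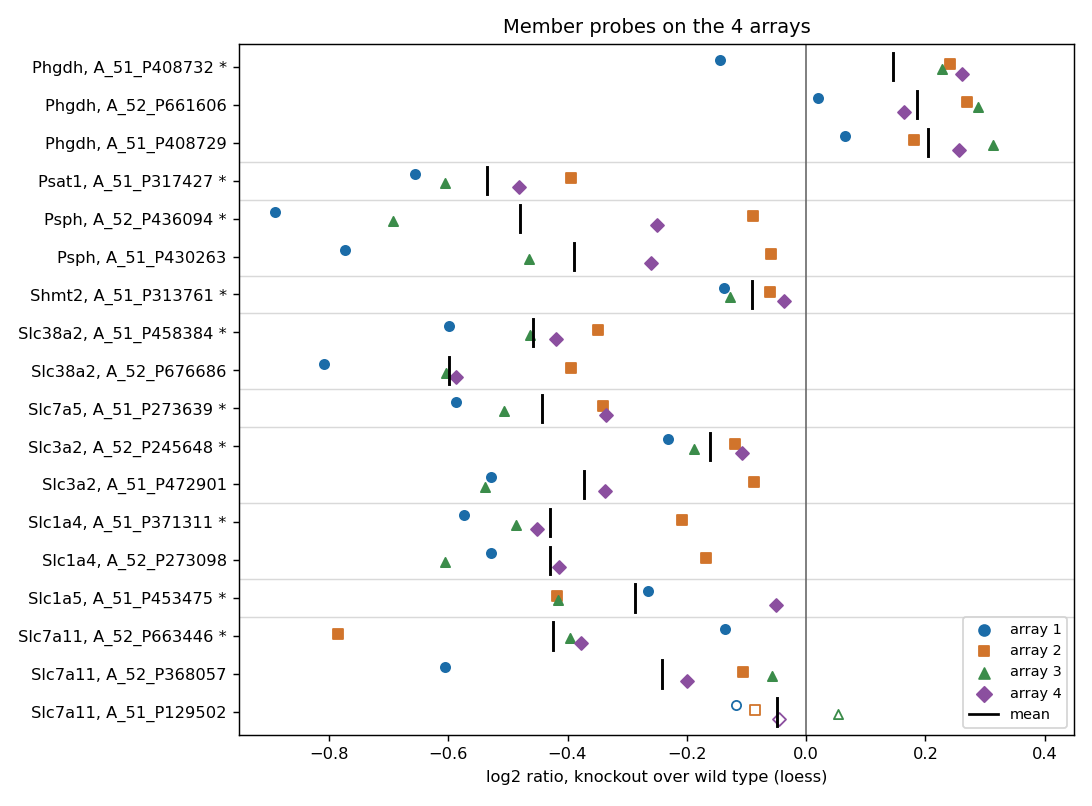
Log2 ratio of knockout over wild type after loess (horizontal axis) for each of the 18 member probes (rows), with 1 symbol per array, the mean as a black bar, open symbols for the probe that was not tested and a star on the probe that stands for its gene. All probes of Psat1, Psph, Shmt2, Slc38a2, Slc7a5, Slc3a2, Slc1a4 and Slc1a5 lie below 0 on all 4 arrays, and the 3 Phgdh probes have means from 0.15 to 0.20.

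Psat1, the transaminase of the second step, had the lowest mean log2 ratio of the 10 genes, each taken on its brightest probe. Its level was 10.58, 10.48, 10.26 and 10.41 in the wild-type extracts of arrays 1 to 4 and 9.92, 10.09, 9.66 and 9.93 in the knockout extracts (log2 normalised signal, not comparable between genes). The highest knockout extract lay below the lowest wild-type extract. The log2 ratio was -0.66, -0.39, -0.61 and -0.48 on arrays 1 to 4, and the mean was -0.53 ± 0.056 (SE, n = 4, limma adjusted p = 0.0023). The gene has 1 probe on the array, and its ratio ranked 116 from the lowest of all genes tested. Its place among the members depended on probe and processing. The second probe of Slc38a2 was lower, at -0.60. With median centring Slc7a11 (-0.46) and Slc1a4 (-0.22) lay below Psat1 (-0.18).

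Psph, the phosphatase of the last step, fell by an amount that differed widely between arrays. Its level was 11.38, 10.64, 11.00 and 10.77 in the 4 wild-type extracts and 10.49, 10.55, 10.31 and 10.52 in the knockout extracts (log2 normalised signal). On this brighter probe the groups did not overlap, and the wild-type extracts spread more (SD 0.32) than the knockout extracts (SD 0.11). The log2 ratio was near 0 on array 2 (-0.089) and lowest on array 1 (-0.89), with -0.69 and -0.25 on arrays 3 and 4. The mean was -0.48 ± 0.12 (SE, n = 4, limma adjusted p = 0.041), and without replicate 1, 3 or 4 the adjusted p was 0.118, 0.126 and 0.058 (0.024 to 0.498 over all 17 alternatives). Its second probe followed the same order over arrays, with -0.77, -0.059, -0.47 and -0.26. On that probe the groups overlapped, with knockout levels of 8.313 to 8.757 and wild-type levels of 8.655 to 9.131. The spreads there were alike (SD 0.19 in knockout and 0.22 in wild type).

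Phgdh, the dehydrogenase of the first step, did not fall with the later steps. Its brightest probe gave -0.15 on array 1 and 0.24, 0.23 and 0.26 on arrays 2 to 4, and the mean of 0.15 ± 0.074 did not pass (SE, n = 4, limma adjusted p = 0.225, with a 95% interval of -0.026 to 0.32). Without replicate 1 it passed at 0.24 (adjusted p = 0.043, and 6.2e-05 to 0.589 over all 17 alternatives). Both other probes were above 0 on all 4 arrays, with means of 0.19 and 0.20 that did not pass either (limma adjusted p over all probes of 0.080 and 0.051). Knockout levels ran from 13.42 to 13.71 and wild-type levels from 13.33 to 13.56 on the brightest probe, so the groups overlapped.

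On every array the ratio of Psat1 was below that of Phgdh. The difference was -0.51, -0.63, -0.83 and -0.74 on the log2 scale (mean -0.68, SD 0.14), with an exact two-sided sign-flip permutation test giving p = 0.125, the smallest 4 arrays allow. For Psph against Phgdh the difference was -0.75, -0.33, -0.92 and -0.51 (exact permutation p = 0.125). Both later enzymes of serine synthesis thus lay below the first on 4 of 4 arrays. With 4 differences of 1 sign this test can only give 0.125, so it decides nothing here. These comparisons and 1 more below were chosen after the values were seen, and their p adjusted over the 3 was 0.125 each.

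Shmt2, which makes glycine and a folate-bound carbon from serine, was just below 0 on all arrays, at -0.14, -0.060, -0.13 and -0.038. Its mean of -0.091 ± 0.045 did not pass (SE, n = 4, limma adjusted p = 0.213), and the 95% interval ran from -0.19 to 0.013. Its value with median centring was 0.37. Knockout and wild-type levels overlapped, at 11.87 to 12.17 and 11.93 to 12.21.

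**Figure D2:**
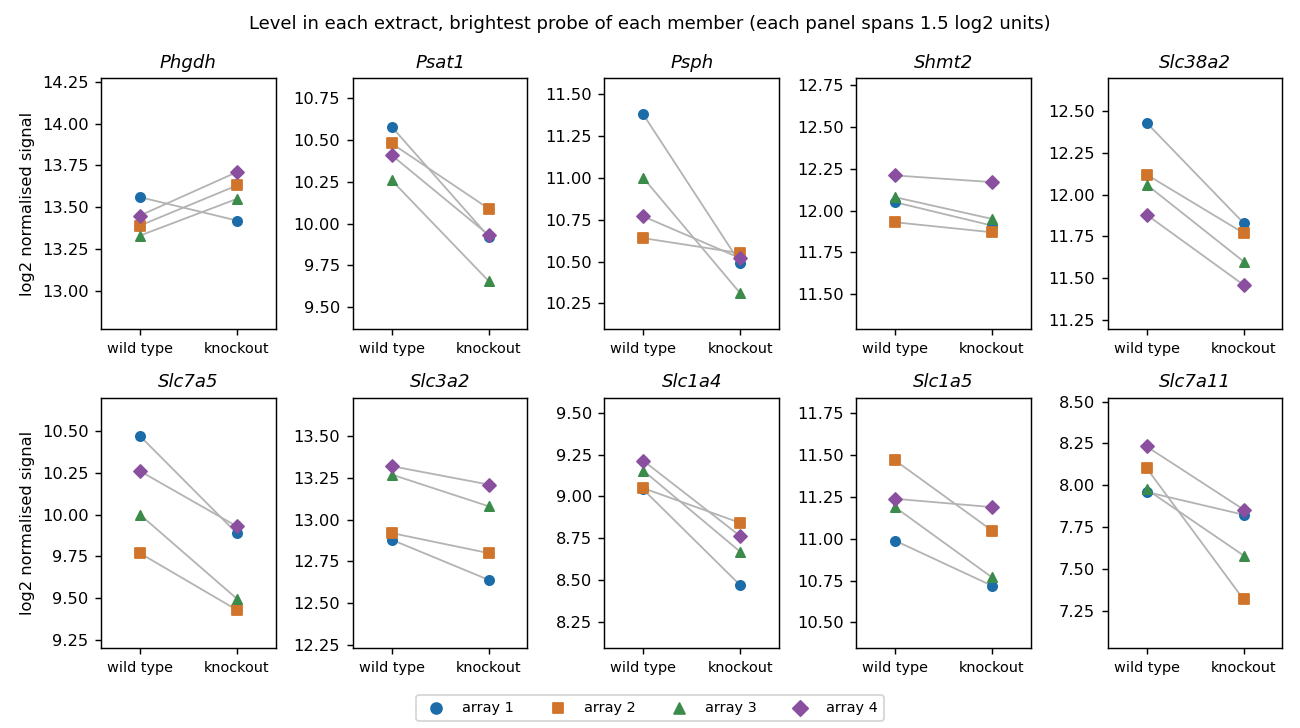
Log2 normalised signal (vertical axis, each panel spanning 1.5 units around its own centre) of the brightest probe of each of the 10 genes in the wild-type and knockout extracts, with a line joining the extracts of 1 array. For Psat1, Psph, Slc38a2, Slc1a4 and Slc7a11 all 4 knockout points lie below all 4 wild-type points, and for Psph the spread is in the wild-type extracts.

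Slc38a2, a sodium-coupled carrier of small neutral amino acids, fell on both of its probes. On the brighter probe the wild-type levels were 12.43, 12.12, 12.06 and 11.88 and the knockout levels 11.83, 11.77, 11.60 and 11.46 (log2 normalised signal, arrays 1 to 4). The groups were separate, by a narrow margin. The log2 ratios were -0.60, -0.35, -0.46 and -0.42, with a mean of -0.46 ± 0.053 (SE, n = 4, limma adjusted p = 0.0032). The second probe gave -0.60 as a mean (limma adjusted p over all probes of 0.0024). With median centring the gene was at -0.0035 and did not pass, where the running median of 501 genes of like brightness was 0.45.

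Slc1a4, a carrier of alanine, serine, cysteine and threonine, fell by 0.43 ± 0.064 (SE, n = 4, limma adjusted p = 0.0070). Wild-type levels were 9.04, 9.05, 9.16 and 9.21 and knockout levels 8.47, 8.84, 8.67 and 8.76, with no overlap. The ratio was nearest 0 on array 2, at -0.21, against -0.57, -0.49 and -0.45 on arrays 1, 3 and 4. Its second probe gave the same mean, -0.43 (limma adjusted p over all probes of 0.010). The gene also passed as lower with median centring (-0.22).

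Slc1a5, its close relative and a main glutamine exchanger, was lower by less, with ratios of -0.26, -0.42, -0.42 and -0.051 on arrays 1 to 4. The knockout levels (10.72, 11.05, 10.77 and 11.19) and the wild-type levels (10.99, 11.47, 11.19 and 11.24) overlapped, although each knockout extract was below the wild-type extract of its own array. The mean was -0.29 ± 0.068 (SE, n = 4, limma adjusted p = 0.032). Without replicate 1, 2 or 3 the adjusted p was 0.090, 0.085 and 0.112 (0.022 to 0.444 over all 17 alternatives), and with median centring the gene was at 0.13.

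Slc7a5, the light chain that imports leucine and other large neutral amino acids, fell by 0.44 ± 0.057 (SE, n = 4, limma adjusted p = 0.0044). The ratios were -0.59, -0.34, -0.51 and -0.34 on arrays 1 to 4. Its levels were 10.47, 9.77, 10.00 and 10.26 in wild type and 9.89, 9.43, 9.50 and 9.93 in knockout, so the groups overlapped while all 4 pairs went the same way. With median centring it was at -0.11 and did not pass.

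Slc7a11, the cystine importer that feeds glutathione synthesis, fell on its brightest probe. The ratios were -0.14, -0.79, -0.40 and -0.38, and the mean was -0.42 ± 0.094 (SE, n = 4, limma adjusted p = 0.025). Wild-type levels were 7.96, 8.10, 7.98 and 8.23 and knockout levels 7.82, 7.32, 7.58 and 7.86, which do not overlap. On this probe array 2 had the largest difference, unlike in Psph and Slc1a4. Without replicate 3 or 4 the adjusted p was 0.067 and 0.065, and with Feature Extraction's processed signals the value was -0.65 (adjusted p = 0.074, and 9.2e-04 to 0.193 over all 17 alternatives).

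Neither other probe of Slc7a11 passed. The second was well above background in the wild-type channel on 4 arrays and in the knockout channel on 2, so it entered the test through wild type. It gave -0.61, -0.11, -0.057 and -0.20 and did not pass (limma adjusted p over all probes of 0.118). Its largest difference was thus on array 1, and not on array 2 as on the brightest probe. The third probe was not well above background on any array in either channel and was not tested.

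Slc3a2, the heavy chain shared by Slc7a5 and Slc7a11, had a mean closer to 0 than either light chain on its brighter probe. On array 1 it was not closer to 0 than Slc7a11, which was at -0.14. Its brighter probe gave -0.23, -0.12, -0.19 and -0.11, with a mean of -0.16 ± 0.046 that did not pass (SE, n = 4, limma adjusted p = 0.054). It passed as lower in 6 of the 17 alternatives and as higher with median centring (0.33), with adjusted p from 3.7e-04 to 0.806. The second probe was lower, at -0.53, -0.087, -0.54 and -0.34, with a mean of -0.37 that passed (limma adjusted p over all probes of 0.022, but 0.091, 0.088 and 0.056 without replicate 1, 3 or 4). On the brighter probe the ratio of Slc3a2 exceeded that of Slc7a5 on 4 of 4 arrays, by 0.28 on average (SD 0.067, exact two-sided sign-flip permutation p = 0.125). On the second probe that order failed on array 3, with Slc3a2 at -0.54 and Slc7a5 at -0.51. The probes of Slc3a2 thus disagree on the size of the decrease, and its contrast with Slc7a5 on each array depends on the probe.

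Of the 17 tested member probes, 11 passed as lower and 0 as higher, where 4.11% of all 32596 tested probes passed as lower and 6.63% as higher. On the probe that stands for its gene, 9 of the 10 genes were below 0 on all 4 arrays, against 14.4% of the 14923 genes with 4 values (24.6% were above 0 on all 4). On the same probes, in 5 of the 10 every knockout extract lay below every wild-type extract, against 2.15% of those genes (6.23% the other way). For Psph this did not hold on its second probe. Ordered by mean ratio, Psat1, Psph, Slc38a2, Slc7a5, Slc1a4 and Slc7a11 came first, from -0.53 to -0.42, and their 95% intervals all overlapped. Slc1a5, Slc3a2, Shmt2 and Phgdh followed, and Slc3a2 and Shmt2 did not differ beyond their intervals. The interval of Slc1a5 (-0.45 to -0.13) also overlapped those of all the genes before it. That of Slc3a2 overlapped those of Psph and Slc7a11, so the intervals show no break in this order. The median of the 10 was -0.42 and -0.44 on arrays 1 and 3, and -0.27 and -0.29 on arrays 2 and 4.

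**Figure D3:**
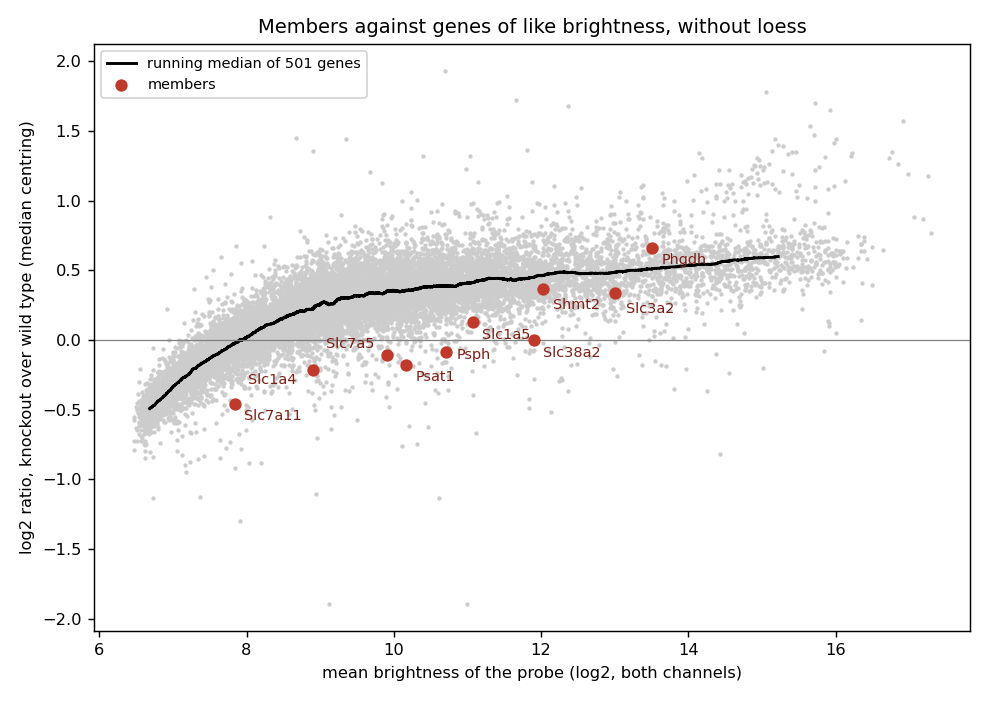
Mean log2 ratio of knockout over wild type with median centring in place of loess (vertical axis) against the mean brightness of the probe (horizontal axis, log2) for all genes tested (grey), with the running median of 501 genes (black) and the 10 members (red). The running median climbs with brightness, and 9 of the 10 members lie below it, while Phgdh lies above it.

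Without loess the typical ratio climbed with brightness. At the brightness of Psat1 the running median of 501 genes was 0.36 and Psat1 was at -0.18. At that of Slc7a11 it was -0.022 and Slc7a11 was at -0.46. Slc3a2 was at 0.33 where the running median was 0.49, and Phgdh at 0.66 where it was 0.51. Of the 10 genes, 9 lay below the running median and Phgdh above. This is the trend that loess removes, so it is the same comparison drawn another way and no further evidence.

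Promoters of 8 of the 10 genes were matched by symbol in a RefSeq table of GRCm38.p6, from 250 bases before to 50 after the start, with 9 promoters in all. Slc7a5 and Slc1a5, which both fell, had no match and were not searched. Sequence outside these bounds was not searched either. The 9 promoters were searched on both strands for TGATGNAA. It is the core of the composite element that C/EBP and ATF proteins bind in genes induced by amino acid shortage. It was found in 2 of the 9 promoters, those of Slc1a4 and Slc7a11, against 3.97% of 32851 promoters in the table. These genes are shown because they fell and hold the match, and capitals mark it. Each line gives 120 bases, 100 before and 20 after the start, on the minus strand of chr11:20332694-20332813 for Slc1a4 and chr3:50443594-50443713 for Slc7a11.
Slc1a4: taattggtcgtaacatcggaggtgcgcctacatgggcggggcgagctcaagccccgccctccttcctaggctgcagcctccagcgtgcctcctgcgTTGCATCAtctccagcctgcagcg
Slc7a11: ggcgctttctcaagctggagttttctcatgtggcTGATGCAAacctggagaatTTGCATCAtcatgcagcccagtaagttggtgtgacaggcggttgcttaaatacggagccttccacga
In Slc7a11 the match occurs in both orientations, at positions -66 to -59 and -47 to -40 relative to the start. In Slc1a4 it lies across the start, on the opposite strand. The array files name an older build, and no coordinate was carried between builds. A match is a description of letters, and these data hold no measurement of binding.

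Among 31 tested genes of 37 other amino acid transporters, 4 fell and 0 rose, with a median of -0.061, against 5.11% and 9.45% of all genes. The 4 were Slc7a3, Slc7a1, Slc36a4 and Slc38a4. Slc7a3, a carrier of arginine and lysine, had ratios of -0.68, -0.64, -0.72 and -0.62 and fell by 0.66 ± 0.044 (SE, n = 4, limma adjusted p = 0.0013), more than any of the 10 members. It was at -0.73 with median centring, and at -1.05 with Feature Extraction's processed signals and with its log ratios. Slc7a1, of the same family, was at -0.43 ± 0.083 (leaving out replicate 1, 3 or 4 gave adjusted p from 0.053 to 0.068), and its other probe was at -0.21 and did not pass. Slc36a4 was at -0.25 (0.070 to 0.105 on leaving out replicate 1, 2 or 3) and Slc38a4 at -0.23 (0.060 to 0.116 on leaving out replicate 1, 3 or 4), and their other probes were at -0.081 and -0.075. With median centring 7 of the 31 passed as lower and 10 as higher (15.8% and 61.0% of all genes did). Slc7a1 was then at -0.11 and Slc36a4 at -0.097, neither past the threshold, and Slc38a4 at 0.13, and without replicate 1 or 3 only Slc7a3 passed.

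Enzymes that use serine or carry its carbon on folate went both ways. Of 27 tested, 3 rose and 3 fell, with a median of 0.0089, where 9.45% of all genes rose and 5.11% fell. With median centring 16 passed as higher and 4 as lower, where 61.0% and 15.8% of all genes did. Mthfd2, which acts beside Shmt2 in mitochondrial folate metabolism, was at -0.76, -0.23, -0.50 and -0.35 and fell by 0.46 ± 0.083 (SE, n = 4, limma adjusted p = 0.013). Cth, which makes cysteine from cystathionine, fell by 0.52 ± 0.098 (limma adjusted p = 0.015). Tyms, which uses folate-bound carbon to make thymidylate, rose by 0.46 ± 0.045 on its brighter probe and was at 0.45 on the other. Sdsl, a relative of serine dehydratase, rose by 0.34 ± 0.052. These 4 kept their sign and passed in every alternative tried but the one that ignored the pairing of extracts. With median centring Mthfd2 was at -0.29, Cth at -0.32, Tyms at 0.84 and Sdsl at 0.59.

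Among 19 tested enzymes of other amino acid synthesis, 2 rose and 3 fell, with a median of -0.051, where 9.45% of all genes rose and 5.11% fell. Glud1 and Got2, mitochondrial enzymes of glutamate and aspartate, rose by 0.52 ± 0.046 and 0.30 ± 0.044 (SE, n = 4, limma adjusted p = 0.0020 and 0.0064), and were at 1.02 and 0.63 with median centring. Got1, the cytosolic counterpart of Got2, was at -0.23 ± 0.051 (leaving out replicate 1, 3 or 4 gave adjusted p from 0.063 to 0.106), and Gpt2 at -0.19 ± 0.045 (likewise from 0.102 to 0.113). With median centring 16 of the 19 passed as higher and 1 as lower (61.0% and 15.8% of all genes did), with Gpt2 at 0.13 and Got1 at -0.042. Asns, asparagine synthetase and a textbook target of Atf4, was at -0.21, 0.15, -0.095 and 0.12, with a mean of -0.0097 that did not pass and was 0.50 with median centring. It was named after its values were seen.

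Transcription factors and targets of the amino acid response were mostly lower. Of 17 tested, 9 fell and 1 rose, with a median of -0.33, where 5.11% of all genes fell and 9.45% rose. With median centring 5 passed as lower and 8 as higher, where 15.8% and 61.0% of all genes did. Chac1, which breaks down glutathione, had ratios of -1.85, -2.53, -1.87 and -2.31, and fell by 2.14 ± 0.11 (SE, n = 4, limma adjusted p = 9.2e-04). Atf5, a relative of Atf4, was at -0.48 ± 0.051, the lipoprotein receptor gene Vldlr at -0.56 ± 0.060 and the stress kinase gene Eif2ak3 at -0.53 ± 0.065. With median centring Vldlr passed as lower at -0.17, and Atf5 and Eif2ak3 did not pass (-0.023 and -0.077). Atf4, named after its values were seen, was at -0.16, -0.22, -0.44 and -0.58 on arrays 1 to 4, with a mean of -0.35 ± 0.074 (limma adjusted p = 0.023, and 0.079 and 0.071 without replicate 3 or 4), and at 0.10 with median centring. How the members' ratios relate to that of Atf4 was not tested.

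**Figure D4:**
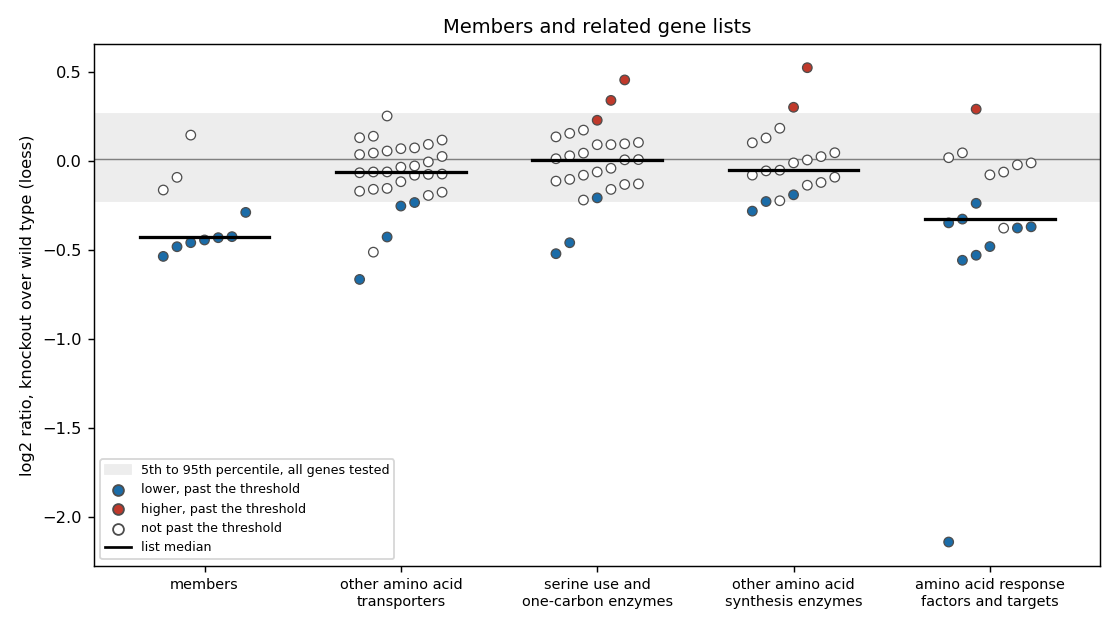
Log2 ratio of knockout over wild type after loess (vertical axis) for the tested genes of each list (columns), filled blue or red where lower or higher past the threshold, with the list median as a black bar and the 5th to 95th percentile of all genes in grey (-0.23 to 0.26). The member median of -0.43 and the amino acid response median of -0.33 lie below the grey band, and the other list medians lie inside it.

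Liver and red cell markers differed between extracts by amounts that changed sign over the arrays. The summed signal of 8 hepatocyte markers differed between knockout and wild type by 1.57, 0.78, -0.56 and 0.33 on arrays 1 to 4 (log2). It ranged from 12.67 to 14.17 in knockout and 12.45 to 13.23 in wild type. Of the 9 tested hepatocyte markers, 0 passed, and Alb ran from -3.52 on array 3 to 4.13 on array 1. The summed signal of 6 red cell markers differed by 0.48, 0.43, -0.43 and 1.43, with 0 of 6 past the threshold. The summed signal of acinar markers differed by -0.028, 0.40, 0.35 and 0.53 on arrays 1 to 4, with sums from 19.49 to 19.91 in knockout and 19.34 to 19.52 in wild type. Of these 12 markers, 4 rose and 1 fell, where 9.45% of all genes rose and 5.11% fell. Of 11 islet, 8 duct, 10 mesenchyme, 7 endothelium, 7 leukocyte and 6 nerve markers, 2 fell (Chga and Tek) and 1 rose (Pdgfrb). Marker calls also depended on loess. With median centring 11 acinar, 7 islet, 8 duct, 9 mesenchyme and 5 endothelium markers passed as higher. So did 2 leukocyte, 4 nerve, 4 red cell and 4 hepatocyte markers, while 1 endothelium and 2 nerve markers passed as lower. Of all genes, 61.0% then passed as higher and 15.8% as lower. The summed signals of 3 lists (endothelium, leukocytes and nerve) were lower in knockout on all 4 arrays. The differences were -0.082, -0.19, -0.20 and -0.056 for endothelium, -0.19, -0.20, -0.052 and -0.16 for leukocytes, and -0.032, -0.13, -0.11 and -0.15 for 5 nerve markers. Islet markers differed by -0.11, 0.13, -0.066 and 0.066, duct markers by 0.020 to 0.11, and mesenchyme markers by -0.17 to 0.29. A sum follows its brightest markers. By the median log2 ratio, endothelium markers were also below 0 on all 4 arrays, but leukocyte and nerve markers were not. That median was 0.061, -0.37, 0.19 and -0.064 for leukocytes, and 0.031 on array 2 for the 6 nerve markers. The part of cell composition in the members' ratios was not tested.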

How the data were processed

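Per the labels, total RNA was copied into amino-allyl cDNA from an oligo(dT) primer, and dye was coupled to it. The authors used Agilent Feature Extraction (version 10.5.1.1, from the submitters' processing notes). The deposited files hold, per the file headers, median and background signals and processed signals, all as intensity. They also hold a log10 ratio, red over green, per the file headers. The deposited median signals were corrected with normexp (offset 50) and normalised by loess within arrays in limma 3.58.1 (R 4.3.3), with control and non-uniform spots (599 to 988 per array) at weight 0. Non-uniform spots were then left out. No spot was saturated, and the arrays shared 1 slide and 1 scan.

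Of 41174 probes, 25097 (61.0%) were named by matching unversioned accessions to RefSeq transcripts of GRCm38.p6. A probe was tested if well above background in 1 channel on at least 3 arrays, with values on at least 3. The brightest tested probe stood for each of 15524 genes. The log2 ratio was fitted across all genes with lmFit and eBayes against 0, two-sided, so the array pairs its extracts. All probes were also fitted singly. Levels are signals after loess and Aquantile. The fit was tested on simulated data.

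Members and lists were chosen with earlier results of these data known. The text names all members, up to 4 genes with the smallest p of each list, and Cyp11a1. Atf4, Asns and the markers Alb, Chga, Tek and Pdgfrb were named after their values were seen. Alternatives changed background correction, normalisation, filter, probe choice, pairing, variance model and weights, or left out 1 replicate.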

Additional observations from a re-analysis of the deposited data

Results flagged for a closer look

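Of 37 probes whose values on the 4 arrays are reported, 1 had an array far from the others by Dixon's criterion, and chance alone would flag about 1 in 20. The brightest Phgdh probe was at -0.15 on array 1, against 0.24, 0.23 and 0.26 on arrays 2 to 4 (a gap of 0.921 of the whole range). The other Phgdh probes were also lowest on array 1, at 0.020 and 0.065.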

How the results depend on the processing

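When loess was replaced by median centring, 9471 genes passed as higher and 2451 as lower, among the members 3 and 3, other transporters 10 and 7, synthesis enzymes 16 and 1, response genes 8 and 5, and one-carbon enzymes 16 and 4. Members were then at 0.66 (Phgdh), -0.087 (Psph), 0.37 (Shmt2), -0.0035 (Slc38a2), -0.11 (Slc7a5), 0.33 (Slc3a2) and 0.13 (Slc1a5), and Slc38a4, Gpt2, Atf4 and Asns at 0.13, 0.13, 0.10 and 0.50. Centring those arrays again on the genes tested, an alternative chosen after seeing the data, gave 4254 higher and 4811 lower, among the members 1 and 6, transporters 4 and 15, one-carbon enzymes 8 and 8, synthesis enzymes 7 and 2, and response genes 5 and 7. It put Phgdh at 0.41, Shmt2 at 0.12, Slc3a2 at 0.083, Slc1a5 at -0.12 and Asns at 0.25. Centring after loess gave 5 lower one-carbon enzymes and Slc3a2 at -0.18. Treating channels as unpaired, with no replicate block for the array, left 77 genes higher and 30 lower, 0 members, transporters, one-carbon or synthesis enzymes, and 0 higher and 1 lower response genes. Its values were -0.53 (Psat1), -0.48 (Psph), -0.46 (Slc38a2), -0.44 (Slc7a5), -0.43 (Slc1a4), -0.29 (Slc1a5) and -0.42 (Slc7a11), none past the threshold. Feature Extraction's processed signals and log ratios put Psph at -0.46 and -0.45 and Slc7a11 at -0.65 and -0.64, no longer past it, Slc3a2 at -0.20 and -0.20, past it, and Asns at 0.024 and 0.031. Slc3a2 also passed with scaling between arrays (-0.16), the mean of probes (-0.27) and array weights (-0.16), while Slc1a5 did not with weights (-0.24). The cause of these shifts was not tested. Leaving out 1 replicate gave 612 to 997 genes higher and 346 to 637 lower, 0 to 1 members higher and 4 to 6 lower, 1 to 4 transporters lower, 0 to 3 synthesis enzymes lower and 0 to 1 response genes higher, with Phgdh at 0.11 to 0.24, Psph at -0.61 to -0.34, Slc1a5 at -0.37 to -0.24 and Slc7a11 at -0.52 to -0.30. Asns ran from -0.062 to 0.059. With 4 arrays of 1 dye orientation, the number of arrays limits precision, dye and genotype cannot be told apart, and Slc7a11 probes near background are limited by signal.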

Other observations

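The motif TGATGNAA was also searched in the related lists. It was found in promoters of 6 of 17 matched genes of the amino acid response (35.3%) and of 4 of 13 enzymes of other amino acid synthesis (30.8%). It was found in 1 of 28 other amino acid transporters (3.57%) and in 0 of 21 enzymes of serine use and folate metabolism, against 4.51% of 27025 genes. The lists share Asns, and no test was made of these shares.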
